A study of Crinum x powellii with 21 samples.

Results

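Callus of Crinum x powellii 'Album', an ornamental plant of the amaryllis family, was compared between culture in light and culture in darkness at 2 mg/L of the synthetic auxin 2,4-D. The comparison was chosen by the treatment labels and holds 3 light libraries (A, B and C) and 2 dark libraries (A and C), 5 of the 21 libraries of the series. It is described across 121349 genes that passed the filter on low counts, of 676992 genes with counts. A gene is here a feature of an assembled transcriptome in the naming scheme of the Trinity assembler. The files pair none of these features with a gene name, a function or a sequence, so that genes are described by their levels, their changes and where else in the plant they were detected.

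Callus is a mass of dividing, little-organised cells that forms on wounded or hormone-treated plant tissue. Auxin and cytokinin together keep such cells dividing, and 2,4-D is an auxin that cells break down slowly. In plants in general, light acts through photoreceptors such as phytochromes and cryptochromes. It turns on genes for chloroplasts, pigments and protective compounds, and plants kept in darkness hold many of these genes down. In amaryllids, bulbs and cultures are of interest for their alkaloids. None of these functions could be looked up for the features here, and the labelled tissue could not be checked against marker genes.

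All 5 libraries came from polyadenylated RNA of callus of the genotype Album, grown from explants of paired bulb scales cut from bulbs bought commercially, with many explants taken from each bulb. All callus groups shared a Murashige and Skoog type medium with the cytokinins BAP and kinetin at 0.5 mg/L each, 100 mg/L yeast extract, 3 g/L Phytagel as gelling agent, 3% sucrose and PPM at 0.075%. Plates held 5 explants at 23 °C, with a transfer to fresh medium every 2 weeks. The days of light callus were made of 14 h lit, with the light given as 100 μMol/m2, and 10 h dark, while dark callus was kept dark for all 24 h. Both groups received 2 mg/L of 2,4-D. A second pair of groups, used here for comparison, had the same light or darkness with 4 mg/L of 2,4-D (3 libraries each). Libraries of leaves (n = 3), bulb (n = 3), basal plate (n = 2) and root (n = 2) come from the plant itself, with another RNA isolation method than callus. The titles of the 2 mg/L libraries carry a 3 where the treatment label gives 2 mg/L, and this mismatch could not be resolved. The labels name no donor plant and do not say that libraries came from separate cultures, so the p-values measure only the spread between these samples, which may be technical.

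The estimated counts added up to 59071345, 26403881 and 58100495 in light libraries A, B and C, against 37313712 and 45927818 in dark libraries A and C. The range over the whole series was 26403881 to 67502918. At 1 CPM (counts scaled to a common library total) or more, 36580, 37753 and 32713 genes were detected in light and 37550 and 40835 in darkness. Across genes, which are not independent replicates, Pearson's r of log2(CPM + 1) was 0.989 to 0.990 between light libraries and 0.986 between both dark libraries, and 0.908 to 0.926 between a light and a dark library. Among 49650 genes with a mean of at least 1 TPM (transcript abundance scaled for length and library total), 11.1 to 13.4% lay at least 2-fold apart between light libraries. For both dark libraries this share was 12.6%, and between a light and a dark library it was 35.6 to 46.4%. In bulk libraries, fewer cells of a type and less RNA per cell cannot be told apart.

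Of the tested genes, 31013 or 25.6% differed between light and dark callus at a false discovery rate (FDR) under 0.05 in edgeR's quasi-likelihood test, and are termed called. Of these, 16294 genes were higher in light, 13.4% of those tested, and 14719 were lower in light, 12.1%. The median log2 fold change was 2.01 among the genes that rose and -1.85 among those that fell. Changes of at least 2-fold made up 26390 of the calls and smaller ones 4623. In TPM, 14885 of the higher genes (91.4%) and 14404 of the lower genes (97.9%) had no overlap between light and dark libraries. Over all 121349 tested genes, 19428 were higher and 43953 lower in light without overlap. TPM sums to the same total in each library, unlike the scaling behind the calls, so this split cannot be compared directly with that of the calls.

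The split into higher and lower genes depended on how the libraries were scaled. With TMM factors (0.941, 1.01 and 0.779 in light, 1.08 and 1.19 in darkness), all tested genes had a median log2 fold change of -0.06, and 52.5% of the called genes were higher in light. With library totals alone that median was -0.38, and 33.8% of the called genes were higher (11907 higher and 23280 lower). The salmon counts, with TMM factors, gave 52.5% higher. Leaving out dark library C reduced the called genes to 20026 (10339 higher, 9687 lower).

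The calls were spread unevenly over expression levels. Levels are given in TPM, as the mean of both group means. Among 4557 genes under 0.1 TPM, 420 were called (9.22%), and among 67142 genes from 0.1 to 1 TPM, 11687 were called (17.4%). The share was 34.6% of 32861 genes from 1 to 10 TPM and 44.1% of 15349 genes from 10 to 100 TPM. It was 52.1% of 1417 genes from 100 to 1000 TPM, and 17 of 23 genes at 1000 TPM or more were called. Read depth per gene grows with level, so the power to call a change is not equal between the classes.

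The direction of the calls also moved with the level. Genes higher in light made up 45.2% of the calls under 0.1 TPM, 45.2% from 0.1 to 1 TPM and 50.9% from 1 to 10 TPM (5791 higher, 5584 lower). They made up 66.3% from 10 to 100 TPM (4493 higher, 2283 lower), 71.0% from 100 to 1000 TPM (524 higher, 214 lower) and 15 of 17 calls at 1000 TPM or more. With library totals these shares were 26.1, 27.4, 33.5, 42.2, 49.5 and 68.2% in the same order of classes. The majority from 1 to 100 TPM thus flipped to genes lower in light, and from 100 to 1000 TPM the split was near even (461 higher, 470 lower). The share of higher genes was larger in the upper classes under both scalings. A TMM fit of the 5 libraries at 2 mg/L alone, with its own filter, differed in the lowest class. There, 68.2% of the calls under 0.1 TPM were higher in light (120 higher, 56 lower). The shares in its other classes were 51.0, 51.6, 66.2, 70.9 and 88.2%, so the direction under 0.1 TPM depended on the fit. In the TMM fit of all 11 callus libraries, the median size of the fitted change among called genes was 3.66 on the log2 scale under 0.1 TPM, 2.51 from 0.1 to 1 TPM, 1.76 from 1 to 10 TPM, 1.20 from 10 to 100 TPM, 1.30 from 100 to 1000 TPM and 3.60 at 1000 TPM or more.

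**Figure D1:**
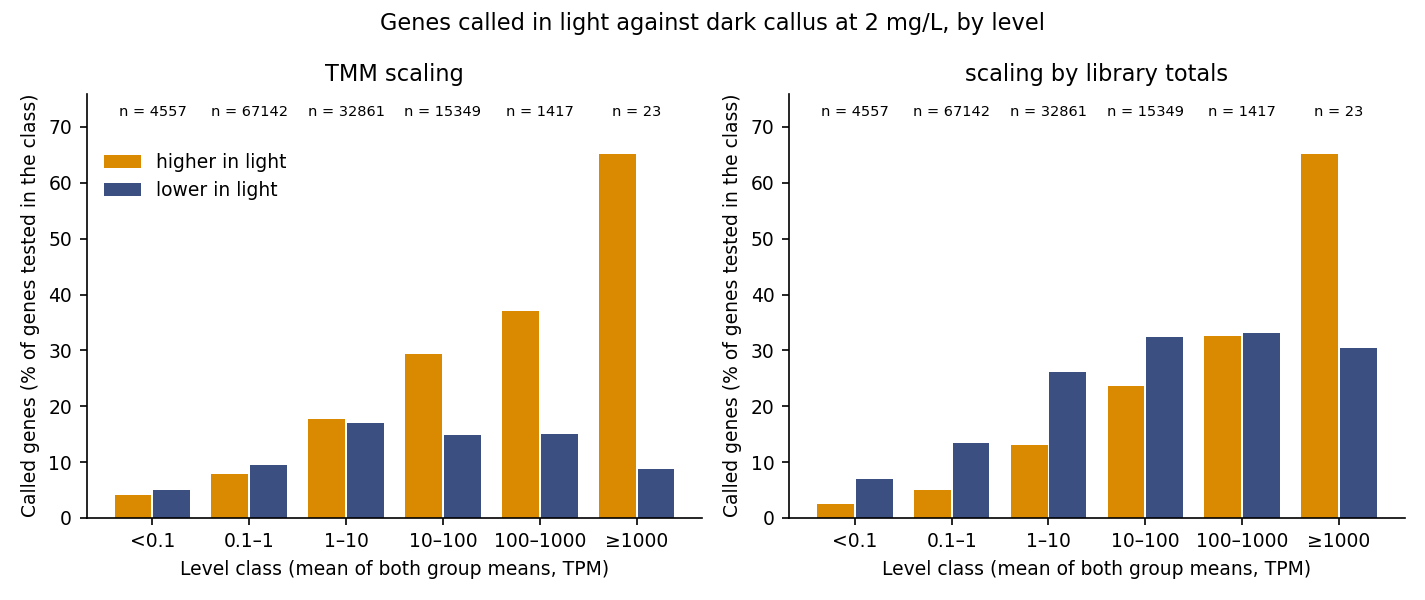
Share of the tested genes in each level class (x axis, mean TPM of light and dark callus at 2 mg/L) that were called higher (orange) or lower (blue) in light, in percent on the y axis, under TMM scaling on the left and library totals on the right. Under TMM, the higher genes outnumber the lower ones from 1 TPM upwards, by 5791 against 5584 genes at 1 to 10 TPM and by 4493 against 2283 at 10 to 100 TPM; under library totals they do so at 1000 TPM or more.

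Detection was also counted at a fixed level in every library of a group, a stricter rule for the 3 light libraries than for the 2 dark ones. At least 1 TPM was reached in every light library by 38266 genes and in every dark library by 46775 genes, with 33532 genes in all 5 libraries. A level of at least 1 TPM in every light library and in no dark library was found for 2905 genes, and the converse for 5977 genes. TPM sums to the same total in each library, so these counts carry the scaling of library totals.

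The called genes held a large part of the transcripts. The 16294 higher genes held 44.8% ± 1.40 of all TPM in light callus (SD, n = 3) and 16.3% ± 0.401 in dark callus (SD, n = 2), values that the choice of genes fixes in direction. The 14719 lower genes held 6.66% ± 0.355 in light callus and 21.3% ± 0.289 in dark callus. The groups at 4 mg/L lay in between. Their libraries were not in the contrast that chose the genes, but entered the same fit and so its filter and dispersions. There, the higher genes held 31.5% ± 2.69 of TPM in light and 19.7% ± 0.470 in darkness (SD, n = 3 each), and the lower genes held 13.7% ± 0.850 in light and 19.4% ± 0.654 in darkness. Neither set overlapped between light and dark libraries at 4 mg/L.

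The organs differed in how much of their transcripts they placed in these genes. The higher genes held 33.6% ± 0.520 of TPM in bulb and 23.2% ± 1.47 in leaves (SD, n = 3 each), and 33.7 and 37.9% in both root libraries. They held 14.8 and 25.8% in both basal plate libraries, which differed more from each other than the libraries of any other organ did. In the same order, the lower genes held 7.81 and 12.7% there, and the tested genes not called held 32.2 and 54.8%. The difference between both basal plate libraries was thus not particular to the higher genes. The lower genes held 13.4% ± 0.878 in leaves and 10.3% ± 0.204 in bulb. The genes higher in light callus thus took a larger share in bulb and root than in leaves or in dark callus.

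The genes with the strongest changes separated the groups further. At least 16-fold was reached by 2871 of the higher genes, which held 9.80% ± 0.565 of TPM in light callus and 0.211% ± 0.00623 in dark callus. Their share was 2.80% ± 0.651 in light and 0.366% ± 0.0421 in darkness at 4 mg/L, 4.73% ± 0.209 in bulb, 2.63% ± 0.485 in leaves, and 3.29 and 4.70% in root. The 1804 genes that fell at least 16-fold held 0.0226% ± 0.00559 in light callus and 1.08% ± 0.0853 in dark callus. In the other callus groups they held more than in the organs, in a set of genes that had passed a filter on callus libraries alone: 0.584% ± 0.0423 in light and 0.800% ± 0.0990 in darkness at 4 mg/L, against 0.0768% ± 0.00115 in bulb and 0.0944% ± 0.00231 in leaves. Light callus at 2 mg/L, in which they were chosen to be low, held less than every organ library. Their highest share in any organ library was 0.142%, in basal plate, under the lowest share of 0.536% in any light library at 4 mg/L.

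**Figure D2:**
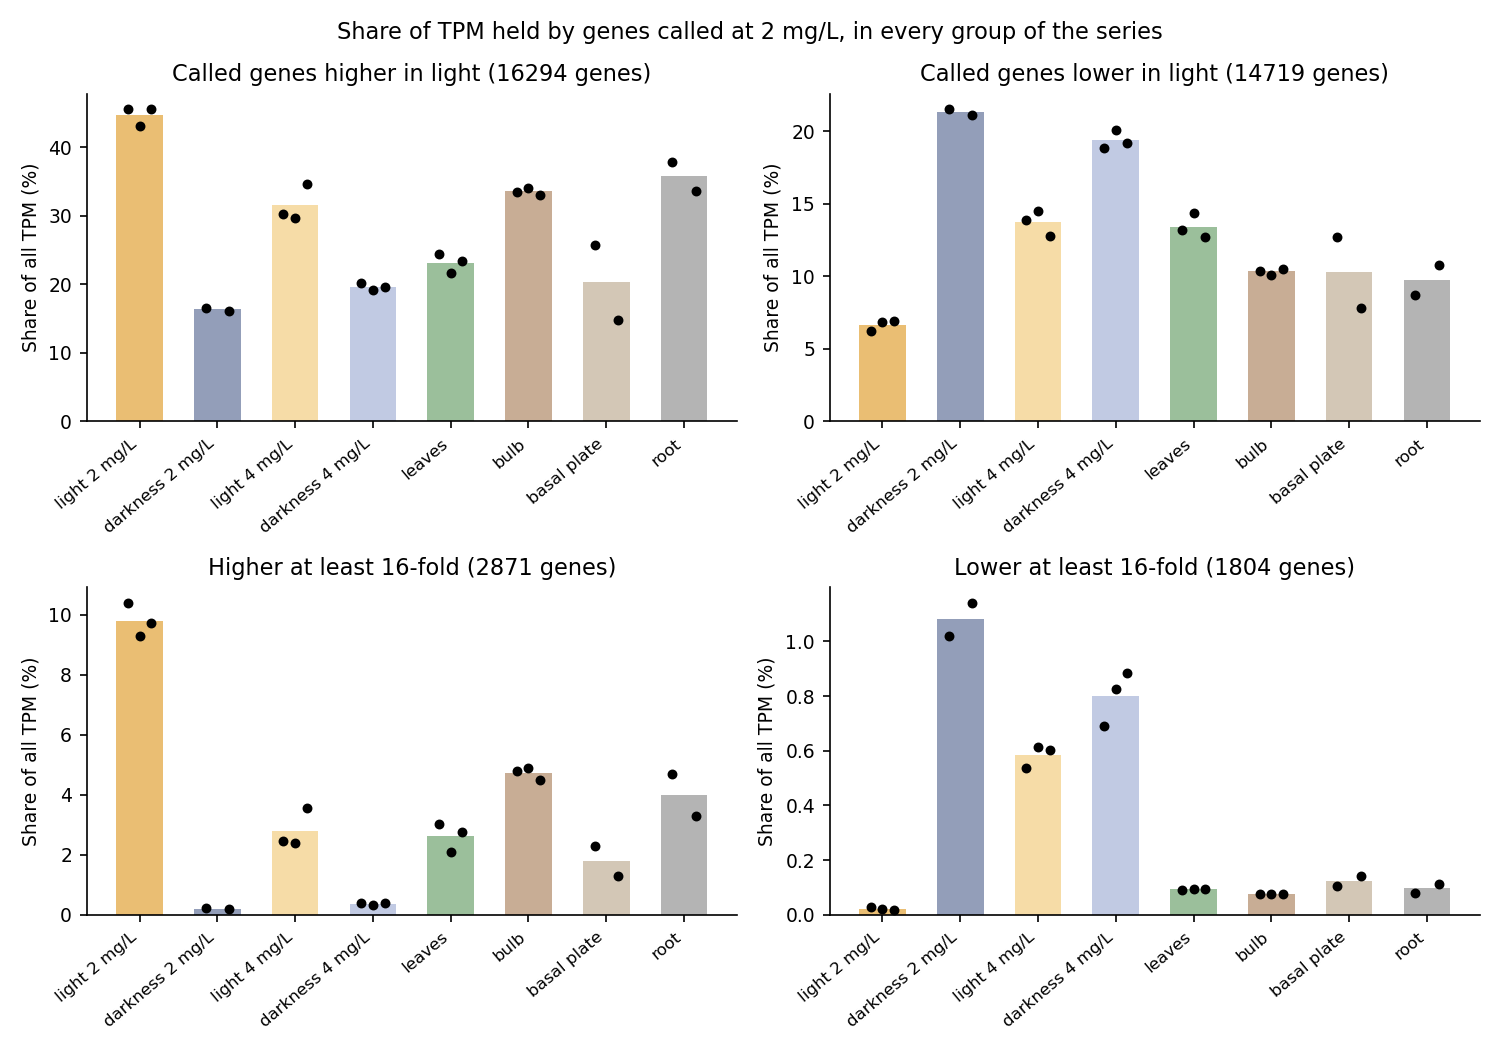
Share of all TPM (y axis, percent) held in each of the 8 groups by the genes called higher or lower in light at 2 mg/L (top row) and by those changed at least 16-fold (bottom row); bars are group means and points are libraries. The 16-fold lower genes hold 0.536 to 1.14% in the callus libraries other than light at 2 mg/L and at most 0.142% in organ libraries.

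Detection in single organs also differed between both sets of strong changes, which had passed a filter on callus libraries alone. Their median level at 2 mg/L differed as well, at 1.03 TPM for the rising and 0.481 TPM for the falling genes. Detection at 1 CPM depends on level, and the shares below were not adjusted for it. Of all tested genes, 21.8% reached at least 1 CPM in every bulb library and 27.0% in every leaf library. Among the genes that rose at least 16-fold, these shares were 22.4% for bulb and 18.7% for leaves, and 21.9% for root. Among the genes that fell at least 16-fold they were 3.10% for bulb, 5.99% for leaves and 4.05% for root. The detection of strongly changed genes at 4 mg/L also differed by direction. Among the rising genes, 21.7% reached 1 CPM in every light library at 4 mg/L and 8.92% in every dark one, and among the falling genes 14.2% did so in light and 18.5% in darkness. Of all tested genes, 27.3% did so in light and 26.8% in darkness.

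Part of the strongest fold changes rested on genes without any count in the lower group. In all 5 libraries together, 961 of the higher genes had 0 counts in both dark libraries and 680 of the lower genes had 0 counts in all 3 light libraries. The fitted fold of such a gene depends on the prior count, and every one of them fell into the class of at least 16-fold. With these genes set to the least fold that a floor of 3 counts per library allows (TMM-scaled library sizes), 2050 genes rose and 1143 fell by at least 16-fold. Of the 350 and 90 genes with a fitted rise and fall of at least 256-fold, 228 and 72 had 0 counts in the lower group, and at their bounds 130 genes rose and 18 fell by as much. The median log2 fold change was then 1.95 among the higher and -1.77 among the lower genes. By library totals, the floor corresponded to 0.0508, 0.114 and 0.0516 CPM in light libraries A, B and C and to 0.0804 and 0.0653 CPM in dark libraries A and C, for counting error only.

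The 4 genes named here, 2 that rose and 2 that fell, were picked by the largest fold and the largest change in TPM. The gene with the largest rise by fold, Crpow_TRINITY_DN1405_c2_g1, had 105, 188 and 158 TPM in light libraries A, B and C and 0 TPM in both dark libraries. Its 6526 counts in light stood against 0 in darkness, which makes the gene at least 661-fold higher in light callus by library totals, and at least 823-fold with TMM-scaled library sizes, at the floor of 3 counts per library (fitted log2 fold change 14.34 ± 0.66 SE, adjusted p = 2.2e-14). The gene was nearly silent in every other callus: 1 of the 6 libraries at 4 mg/L, light A, held a single count. In the plant it had 178, 168 and 143 TPM in bulb, about the level of light callus at 2 mg/L, and 51.3, 42.6 and 24.6 TPM in leaves. Basal plate gave 35.4 and 2.52 TPM and root 0 in both libraries. No fold is given at 4 mg/L, where both groups lay under the floor, and the test of the difference between both concentrations (FDR = 0.99993) carries no information for a gene at this level. It is a gene of 1 isoform, alone in its Trinity component, and salmon assigned it 0 and 2 counts in the dark libraries.

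The gene with the largest gain in TPM, Crpow_TRINITY_DN3395_c2_g1, had 10661, 8328 and 8712 TPM in light and 68.7 and 77.9 TPM in darkness. Light and dark libraries were far apart, with a log2 fold change of 7.36 ± 0.39 (SE, adjusted p = 3.9e-14). At 4 mg/L its level was 252, 188 and 292 TPM in light and 206, 99.0 and 93.0 TPM in darkness, so that the groups overlapped in TPM, and the log2 fold change was 0.99 ± 0.25 (adjusted p = 0.0072). The difference between both light effects passed its own test, which called 13981 genes in all (11.5% of those tested), with an adjusted p of 5.4e-11 for this gene. Bulb was the organ with the highest level, at 952, 1117 and 1068 TPM, and the leaves held 135 to 211 TPM. One of its 7 isoforms held 96.4% of its counts in light and 99.1% in darkness. Salmon gave a level of 15728 to 19775 TPM in light, and 61.0 and 71.7 TPM in darkness, so that both quantifiers differed in level more than in direction.

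The gene with the largest fall by fold, Crpow_TRINITY_DN19626_c1_g1, had 0, 0 and 0.0580 TPM in light libraries A, B and C, from 0, 0 and 2 counts, against 90.5 and 56.0 TPM in darkness. Its fitted log2 fold change was -11.03 ± 0.62 (SE, adjusted p = 1.0e-13). By pooled counts, 2 in light against 3457 in darkness, the level in darkness was 2328 times that in light (TMM-scaled library sizes), with an exact 95% interval of 644 to 19227 for counting error only. Without light library C, which held both counts, the fitted value was -13.86. At 4 mg/L the gene was present in both conditions, with 8.20, 16.6 and 24.6 TPM in light and 41.4, 32.3 and 40.2 TPM in darkness (log2 fold change -1.06 ± 0.31 SE, adjusted p = 0.022). These groups did not overlap, but the difference was far smaller than at 2 mg/L (adjusted p of the interaction 2.9e-10). Bulb held 59.7, 71.3 and 60.5 TPM, whereas leaves, basal plate and root held at most 8.83 TPM.

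The gene with the largest loss in TPM, Crpow_TRINITY_DN2000_c2_g1, had 535, 630 and 525 TPM in light and 2811 and 2366 TPM in darkness. The log2 fold change was -1.97 ± 0.21 (SE, adjusted p = 3.1e-08). At 4 mg/L the values were 1695, 2313 and 1328 TPM in light and 2711, 2433 and 2899 TPM in darkness. There the light and dark libraries did not overlap, the log2 fold change of -0.56 ± 0.19 missed the threshold (adjusted p = 0.055), and the interaction passed it (adjusted p = 0.0011). Leaves averaged 1617 ± 270 TPM and bulb 1117 ± 107 TPM (SD, n = 3 each), both above light callus at 2 mg/L. The gene shares its Trinity component with other genes (3 in all), so that reads of near-identical copies may be split between them.

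**Figure D3:**
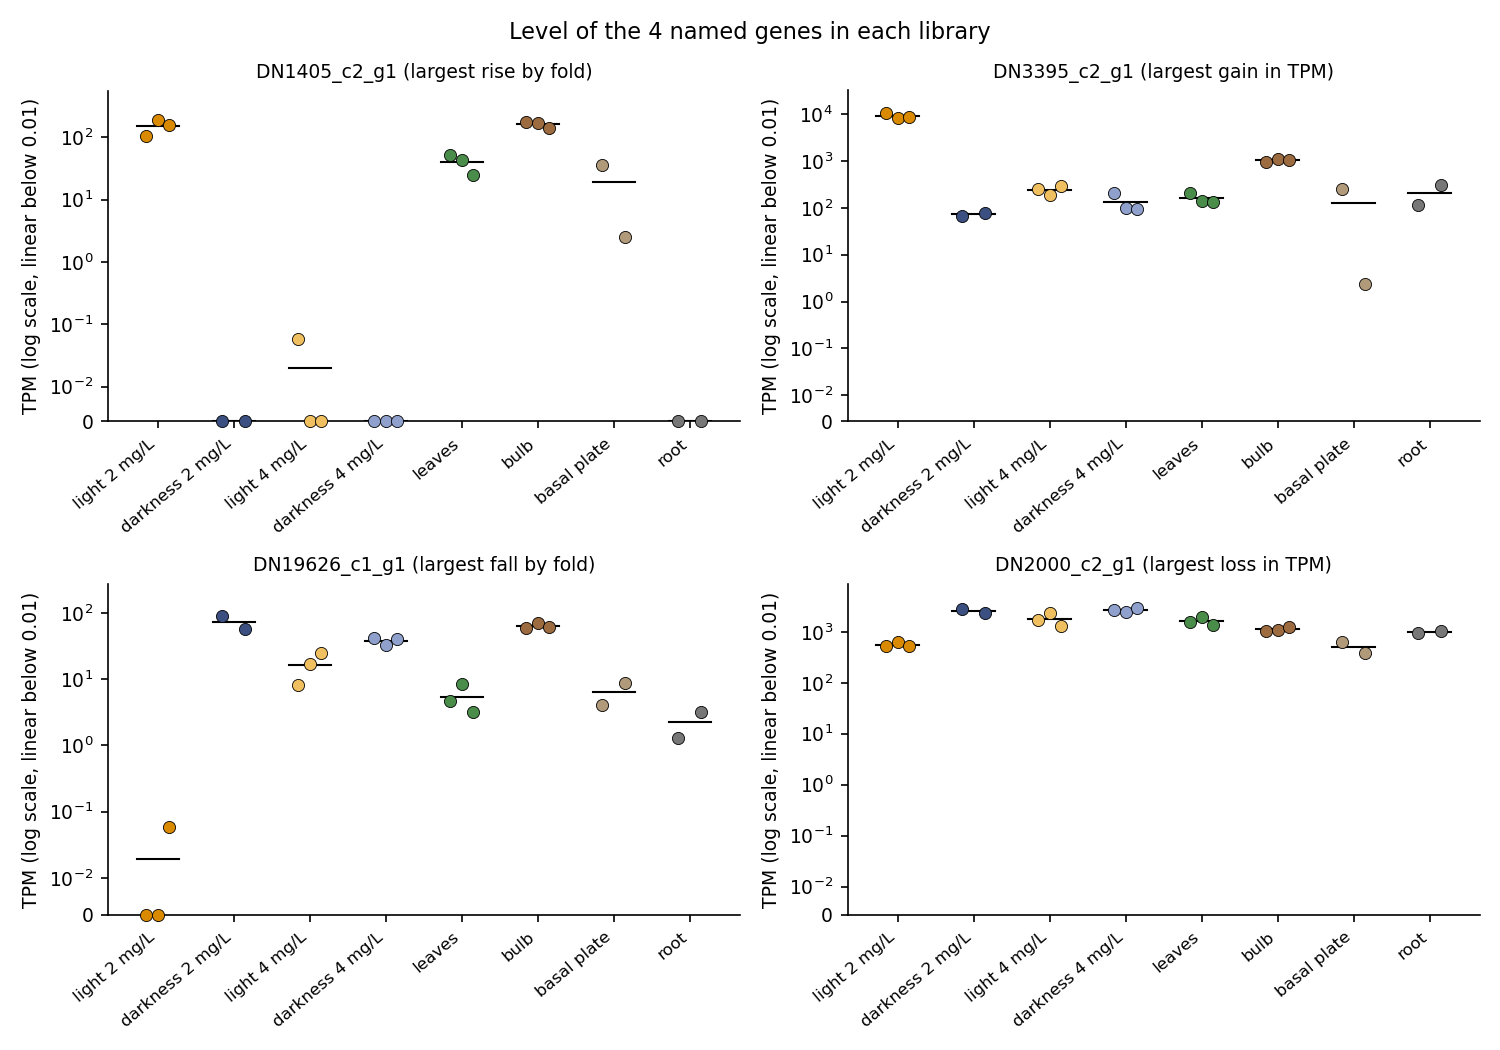
TPM of the 4 named genes (y axis, logarithmic above 0.01 TPM and linear below) in every library of the 8 groups; points are libraries and lines are group means. The gene DN1405_c2_g1 is at 105 to 188 TPM in light at 2 mg/L and at 143 to 178 TPM in bulb, and at 0 in 7 of the other 8 callus libraries.

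The 20 called genes with the largest gains in TPM together held 6.02% ± 0.510 of all TPM in light callus and 0.362% ± 0.0380 in dark callus. Their gains ran from 1460 to 9160 TPM, and their log2 fold changes from 2.36 to 11.79 with a median of 5.19. At 4 mg/L, all but 1 of them were called in the same direction (19 of 20, where 7.32% of tested genes were called higher in light and 12.6% were called in all). The exception had 47.4 TPM in light and 44.0 TPM in darkness at 4 mg/L and 5878 TPM in bulb, above its 3237 TPM in light callus at 2 mg/L. The median level of all tested genes at 2 mg/L was 0.681 TPM, and genes at higher levels were called more often there. The shares over all tested genes are thus no like background for these 20 genes. For 17 of the 20 the interaction passed its test, and for 3 the mean in light was higher at 4 than at 2 mg/L. As a set they held 2.02% ± 0.481 in light and 0.410% ± 0.0441 in darkness at 4 mg/L, 2.43% ± 0.281 in bulb and 0.302% ± 0.0325 in leaves. A mean above 10 TPM was found for 17 of them in bulb, 18 in root, 19 in basal plate and 15 in leaves.

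The 20 called genes with the largest losses changed less. They held 0.611% ± 0.0268 of TPM in light callus and 2.38% ± 0.592 in dark callus, with 1.96 and 2.80% in both dark libraries. Their changes in TPM (light minus darkness) ran from -2025 to -633 and their log2 fold changes from -6.62 to -0.68 with a median of -1.62. At 4 mg/L, 18 of them had the same sign and 10 were called in the same direction, where 5.28% of tested genes were called lower in light. These 20 genes also lay far above the median level of all tested genes, so that this share is no like background. The interaction was called for 11. All 20 had a higher mean in light at 4 mg/L than in light at 2 mg/L, the group in which they were chosen to be low. The gene with the largest fold among them had 4.92 TPM in light and 768 TPM in darkness at 2 mg/L, and 549 TPM in light and 555 TPM in darkness at 4 mg/L. It was listed at 0 in leaves and bulb.

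The contrast at 4 mg/L holds other libraries than that at 2 mg/L, within the same fit, filter and dispersions. There, 15288 genes were called (12.6% of those tested), 8879 higher (7.32%) and 6409 lower (5.28%) in light. Both concentrations shared 8374 calls, 27.0% of those at 2 mg/L and 54.8% of those at 4 mg/L, and 7516 of these had the same direction. Of the genes called at 2 mg/L, 22709 or 73.2% had the same sign at 4 mg/L, called or not, against 60.9% of all tested genes and 56.6% of those not called. Calls in opposite directions numbered 429 among the genes higher and 429 among those lower in light at 2 mg/L.

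For genes that rose, the share with the same sign at 4 mg/L was mostly larger in the classes of larger change at 2 mg/L. For genes that fell, it was highest in the class of the smallest change. By sign, 53.3% of all tested genes were higher in light at 4 mg/L. Of the higher genes changed under 2-fold, 59.3% had the same sign at 4 mg/L. The share was 72.3% from 2 to 4-fold, 79.4% from 4 to 8-fold, 84.0% from 8 to 16-fold, 85.4% from 16 to 64-fold, 78.4% from 64 to 256-fold and 87.1% for 350 genes at 256-fold or more. Among the lower genes, the share was 79.2% under 2-fold, 67.5 to 73.5% in the classes from 2 to 256-fold and 76.7% for 90 genes at 256-fold or more. The median log2 fold change at 4 mg/L was 3.45 for the higher genes of at least 256-fold and -0.87 for the lower ones. This contrast between both directions is given as a description, with no test.

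Where the light effects of both concentrations differed, the effect was mostly the larger at 2 mg/L. Of the 13981 genes with a called interaction, 11648 (83.3%) had the larger fitted change at 2 mg/L and 2333 at 4 mg/L, and 702 were called at neither concentration. Among genes called at 2 mg/L, the interaction passed for 11543 (37.2%), and the effect was smaller at 4 mg/L for 11191 of these, in a set chosen for its change at 2 mg/L. Among genes called at 4 mg/L, it passed for 4247 (27.8%), with the smaller effect at 2 mg/L for 2050. The share of called interactions was higher in the classes with the larger falls in light, at 9.31% of lower genes under 2-fold, 47.3% from 4 to 8-fold, 68.3% from 16 to 64-fold, 67.1% from 64 to 256-fold and 96.7% at 256-fold or more. For higher genes it stayed between 29.2 and 44.0% in all 7 fold classes. At 256-fold or more, 1.71% of the higher genes reached 1 CPM in every dark library at 4 mg/L. Of the lower genes, 23.3% did so in every light library there. The interaction is poorly estimated for a gene with hardly any counts in the lower group at both concentrations. The shares of both directions can therefore not be compared directly, and the part of the floor in them was not tested. Changes of at least 16-fold were fitted for 971 higher and 169 lower genes called at 4 mg/L. The median standard error of the log2 fold change was 0.53 at 2 mg/L, with 3 and 2 libraries, and 0.45 at 4 mg/L, with 3 in each group.

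**Figure D4:**
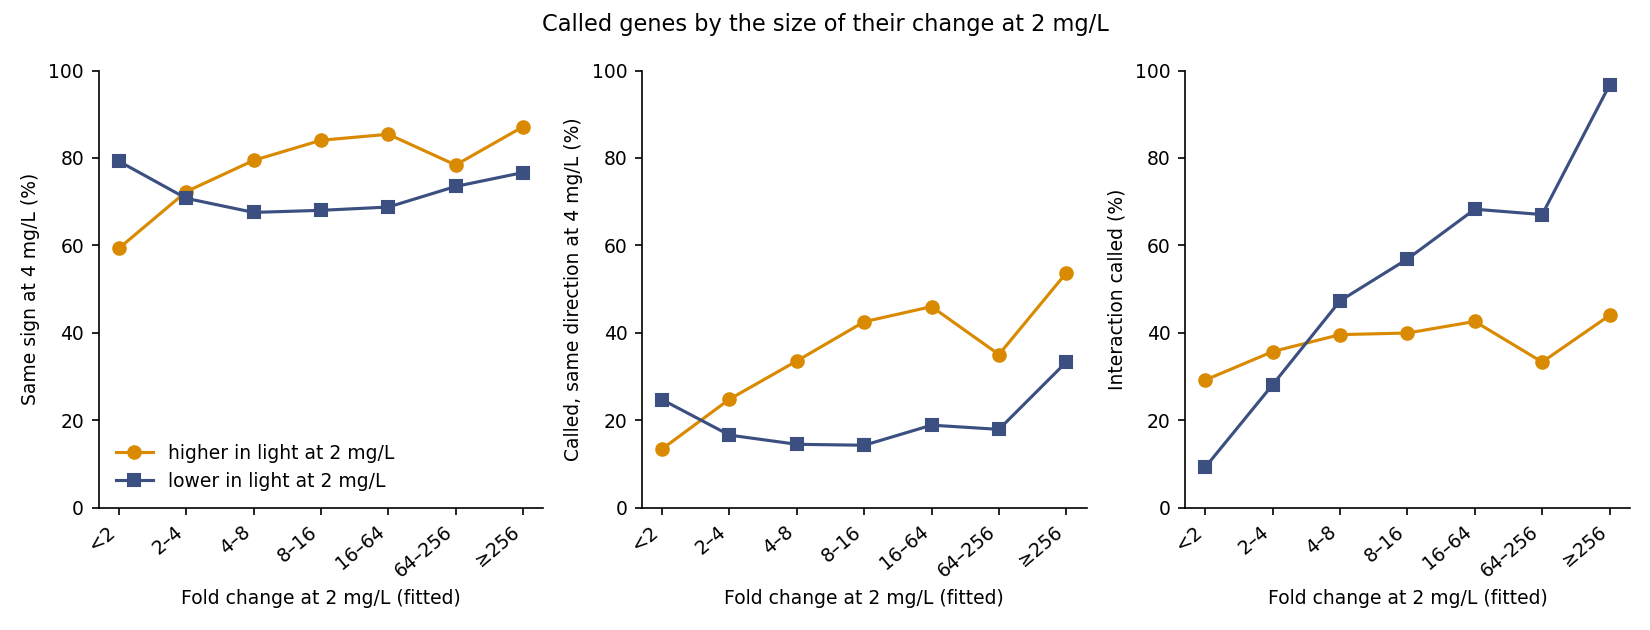
Called genes at 2 mg/L by the size of their fitted change (x axis, fold), separately for genes higher (orange) and lower (blue) in light, with the share that had the same sign at 4 mg/L, that was called there in the same direction, and that had a called interaction (y axes, percent). Interactions reach 96.7% among the 90 genes lower by at least 256-fold and 44.0% among the 350 genes higher by as much; 72 and 228 of these have 0 counts in the lower group, so that their fitted fold depends on the prior count.

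Genes switched fully on or off were those that reached 1 CPM throughout one group and had 0 counts in every library of the other group. There were 79 genes on in light and off in darkness, and 19 genes off in light and on in darkness. Off in light asks for 0 counts in 3 libraries and off in darkness in 2, and on asks for 1 CPM in as many. Both numbers thus come from unequal rules and cannot be compared directly. All of these genes were called, a result that their selection on the same libraries fixes. Genes on in light had a median of 7.59 TPM in light callus (0.609 to 176 TPM), and genes on in darkness a median of 6.03 TPM in dark callus (0.839 to 32.4 TPM). At a minimum of 10 CPM, 11 genes were on in light and none was on in darkness. A further 141 and 40 genes failed the rule by 1 to 3 counts in all over the group that was off.

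The number of such genes depended on depth and on single libraries. Without dark library A it was 131 genes on in light, and without dark library C 175. Genes on in darkness numbered 51 without light library A, 29 without light library C, 51 without dark library A and 35 without dark library C. Off is an upper limit, and a count of 0 allows up to 0.0804 CPM in dark library A and up to 0.114 CPM in light library B. By the second quantifier, salmon, 61 of the 79 genes had 0 counts in both dark libraries and none reached 1 CPM there (highest 0.762 CPM), and 56 of the 79 met the whole rule. Of the 19 genes, 15 had 0 salmon counts in all light libraries and 8 met the whole rule.

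Most of the genes on in light at 2 mg/L had low levels at 4 mg/L. Of the 79 genes, 72 had the same sign at 4 mg/L, where 53.3% of all tested genes were higher in light by sign. A call in the same direction was made for 47, against 7.32% of tested genes called higher in light, and none was called in the opposite direction. In dark callus at 4 mg/L, 41 of them had 0 counts in every library and none reached 1 CPM in every library. In light callus at 4 mg/L, 9 of the 79 reached 1 CPM in every library and 5 had 0 counts throughout, with a median of 0.288 TPM. A single gene met the rule for on and off at both concentrations. The 79 genes were thus scarce in darkness in both pairs of groups, and most were also scarce in light at 4 mg/L.

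In the plant, 29 of the 79 genes reached 1 CPM in every library of at least 1 organ. The leaves held 19 such genes, the bulb 13, the root 11 and the basal plate 8, and 8 were found in both bulb and leaves. By the same rule, the shares over all tested genes were 27.0% for leaves, 21.8% for bulb, 23.3% for root and 27.2% for basal plate. For at least 1 organ, the share over all tested genes was not computed. In each single organ, the 79 genes were detected less often than all tested genes, most clearly in basal plate (8 of 79 against 27.2%). Detection at 1 CPM depends on level, and these shares were not adjusted for it. A single gene of the 79 had no count in any organ library. Another gene of the same Trinity component existed for 24 of the 79, and in 8 cases this partner was on in dark callus, so that reads moved between near-identical copies cannot be told apart from a switch of the gene. Single-isoform genes made up 33 of the 79, or 41.8%, against 41.4% of all tested genes.

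The 19 genes on in darkness behaved otherwise at 4 mg/L. Every one of them had counts in both light and darkness there, and 10 reached 1 CPM in every dark library and 6 in every light library. Their median level at 4 mg/L was 1.74 TPM in light and 3.40 TPM in darkness. The same sign was found for 12 and a call in the same direction for 7, where 5.28% of tested genes were called lower, while 1 gene was called higher in light. The interaction was called for all 19, against 11.5% of tested genes. It reuses the libraries at 2 mg/L in which these genes were chosen for 0 counts in light, so their selection favours this result. In the organs, 2 of the 19 reached 1 CPM in every library of an organ, 1 gene in leaves and 1 in root. Each single organ gave 21.8 to 27.2% of all tested genes by this rule. Counts of 0 were found for 11 of the 19 in all bulb libraries and for 11 in all leaf libraries. These genes had passed a filter on callus libraries alone.

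**Figure D5:**
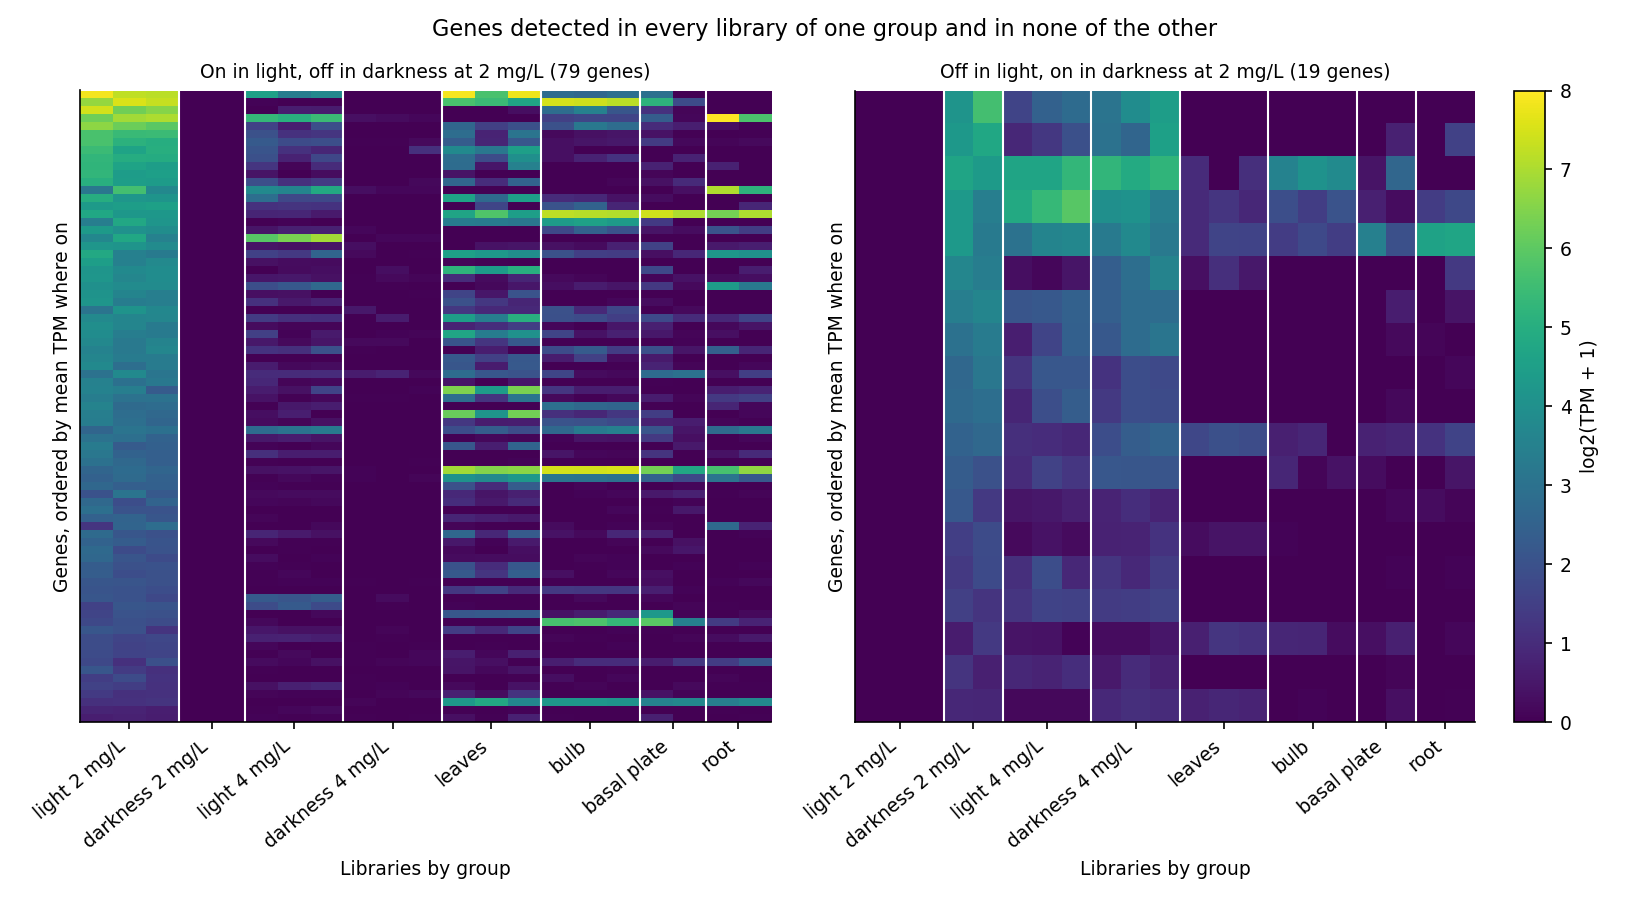
Level of the 79 genes on in light and off in darkness (left) and of the 19 genes off in light and on in darkness (right) at 2 mg/L, as log2(TPM + 1) by colour; columns are the 21 libraries by group and rows are genes, ordered by their mean TPM where they were on. The 79 genes are at or near 0 in both dark callus groups and scattered over the organs, and all of the 19 genes have counts in light callus at 4 mg/L.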

How the data were processed

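RNA-seq was analysed in 21 libraries, grouped by the treatment and tissue labels. The submitters' processing notes name fastp 0.23.4, kallisto 0.46.1 and Salmon 1.4.0, without their roles. Isoform and gene tables were deposited with estimated counts and with TPM, once from salmon according to their names and once from a quantifier that the sources used here do not name. The deposited gene tables named as counts hold a scaled signal: 100% of their values equal the gene TPM scaled to the library total (tolerance 1% plus 0.02). The design had assumed gene counts. Isoform counts of the unnamed quantifier were therefore summed per gene and rounded, and the authors' gene TPM gave levels.

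Light was compared with darkness in 1 fit of the 11 callus libraries (4 groups) with edgeR 4.0.16 in R 4.3.3 (quasi-likelihood F test, TMM, filterByExpr, Benjamini-Hochberg adjustment over all tested genes, FDR under 0.05). The standard error (SE) is the log2 fold change divided by the square root of F. The difference of the light effects at 4 and 2 mg/L was tested as an interaction. The procedure was checked on simulated data. Replicates differed by more than sampling noise (chi-square per gene 8.05 to 16.2), and intervals and floors cover counting error only. Named genes were the largest rise and fall by fold (no overlap, and 10 CPM or more throughout the higher group) and the largest gain and loss in TPM. DESeq2 1.42.0, limma 3.58.1 on log2(TPM + 1), other scalings and filters, salmon counts and leaving out libraries were alternatives. The comparison, the gene sets and the rules were chosen with earlier results of these data known. Dark replicate B at 2 mg/L was not analysed here.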

Additional observations from a re-analysis of the deposited data

Results flagged for a closer look

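The light effect differed between the concentrations of 2,4-D, by the test of the interaction, for 11543 genes called at 2 mg/L. Among the genes switched on or off, it differed for 25 of the 79 genes on in light and for 19 of the 19 genes on in darkness, against 11.5% of all tested genes (13981 of 121349). Among the named genes, the log2 fold change at 4 mg/L minus that at 2 mg/L was -6.37 for Crpow_TRINITY_DN3395_c2_g1, 9.97 for Crpow_TRINITY_DN19626_c1_g1 and 1.41 for Crpow_TRINITY_DN2000_c2_g1, each past the threshold. All of these genes, switched or named, were chosen for their change at 2 mg/L, and the interaction reuses those libraries. Of the 79 genes, 41 had 0 counts in every dark library at 4 mg/L, where the interaction is poorly estimated, so that 25 of 79 and 19 of 19 cannot be compared directly. The groups at both concentrations held separate libraries, and a batch shared by all libraries of 1 concentration cannot be told apart from the concentration.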

How the results depend on the processing

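The 4 named genes kept their direction and stayed past the threshold under all 15 alternatives tried for each. The number of called genes stayed within 1.5 times of 31013 under every alternative except without dark library C. Leaving out 1 library gave 20026 to 28262 called genes, 10339 to 15254 higher and 9687 to 13552 lower in light. The lowest value of each came without dark library C, and there too on an unchanged set of tested genes, an alternative added after the data were seen (20088 called, 10519 higher, 9569 lower). Of the 20026 genes, 18700 were among the 31013. Genes lower in light numbered 23280 with library totals and, with limma, 22856 at a pseudocount of 1 TPM and 22898 at 0.1 TPM, the settings without TMM or RLE factors.

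The share of called genes with the same sign at 4 mg/L was 72.5% with library totals, 74.7% without a filter, 73.9% with DESeq2, 74.3% with salmon counts, 74.9% and 74.8% with limma at both pseudocounts, and 72.6 to 76.8% when 1 library was left out. The fit of the 5 libraries alone gives no such share. Genes on in light and off in darkness numbered 11 from 10 CPM, 294 with off set under 0.1 CPM, and 87 to 175 when 1 library was left out. Genes off in light and on in darkness numbered 0 from 10 CPM, 119 under 0.1 CPM, 11 with salmon counts, and 25 to 51 when 1 library was left out. Under 0.1 TPM, 16.1% of genes were called in the fit of 5 libraries. With the replicate letter as a block, 29775 genes were called, 28553 of them among the 31013. The letters share no stated pairing, and deviations of the same letter correlated at 0.04 (A) and -0.22 (C). Light B and dark C, of unlike letters, correlated at 0.27. With 2 dark libraries the deviations of one mirror those of the other, so these values can neither show nor exclude a pairing. Depth limits the genes under 1 TPM and the calls of off; the cause of these shifts was not tested.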
